A study of Mus musculus with 12 samples.

Results

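The genes of mitosis and DNA replication were followed in cultured cardiac fibroblasts given a ligand or an inhibitor of PDGF receptors, or left untreated. They were 60 listed cell-cycle genes, 29 that act in mitosis and 31 that act in DNA replication, among 19938 genes measured. They were chosen by gene symbol from probe sets that carry a single symbol, with the brightest probe set kept for each gene, and all 60 were measured. The cells were cardiac colony-forming fibroblasts (cCFU-F), sorted from the hearts of C57BL/6 male mice aged 12 weeks as SCA1+ PDGFRα+ CD31- cells and grown in primary culture. Cultures received 50 ng/ml of PDGF-AB, 10 uM or 1 uM of AG1296, or no treatment, with 3 arrays in each of the 4 groups. PDGF-AB is a dimeric growth factor that activates PDGF receptors, and AG1296 is a tyrosine kinase inhibitor of these receptors that was given without added ligand. How long the cells were treated, in what medium and with which vehicle was not stated in the labels, so an effect of a vehicle cannot be told apart from that of AG1296. The labels do not say whether the 3 arrays of a group came from separate mice or cultures, so p-values measure the spread between these arrays, which may be technical.

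A dividing cell copies its DNA in S phase and separates the copies in M phase. In G1, the MCM helicase is loaded at origins with the help of Cdc6 and Cdt1. E2F factors and cyclin E then start S phase, and the fork proteins, the deoxynucleotide enzymes and the histone chaperones come into use. Later, cyclins A and B with Cdk1 drive entry into mitosis, in which the kinetochore, the spindle, the checkpoint and finally the cytokinesis machinery act. PDGF is a classical mitogen of fibroblasts and other mesenchymal cells, and transcripts of both sets are widely read as a measure of how many cells are cycling. In a bulk culture, fewer cycling cells and less RNA per cycling cell cannot be told apart.

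Values are log2 expression, so a difference of 1 is a doubling. The array medians over all probe sets lay between 4.02 and 4.13. Of the members, 58 lay above the median on every array, while Orc1 lay below it on all 12 arrays and Cenpe on 2 of 12. The median is not a limit of detection, and other members were dim as well. Among them, Gins1 ranged from 4.08 to 4.72, Cenpf from 4.43 to 5.11, Ttk from 4.46 to 4.80 and Mki67 from 4.50 to 5.04. The median residual SD between arrays of a group was 0.12 for the mitosis members and 0.12 for the replication members, against 0.15 for all genes. All 11 fibroblast markers lay above the array median in every group. Of 8 endothelial markers 0 or 1 lay above the array median on all arrays of a group, and of 8 leukocyte markers 1 or 2. Pecam1 and Cdh5 of endothelium stayed between 2.87 and 3.32 on all arrays and Ptprc of leukocytes between 2.63 and 3.04, while the leukocyte markers Lyz2 and Cd53 were brighter on average in each group.

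Few of the cell-cycle genes passed the test under either treatment. In cells given PDGF-AB, 0 of the 60 members passed the test against untreated cells (limma, Benjamini-Hochberg adjusted p under 0.05 over all genes), where 0.331% of all genes were called. At an unadjusted p under 0.05 the count was 3 of 60, against 8.55% of all genes. AG1296 at 10 uM gave 1 call, the kinetochore gene Cenpf, which was higher (background 1.88%). AG1296 at 1 uM gave 1 call, the ribonucleotide reductase gene Rrm2, which was also higher (background 3.2%). At an unadjusted p under 0.05 the counts were 6 of 60 at 10 uM and 10 of 60 at 1 uM, against 11.4% and 13.1% of all genes. Over the 4 groups together, the F test called Cenpf and Rrm1, against 5% of all genes.

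Intervals taken gene by gene, without adjustment for the number of genes, describe how large the differences between these arrays may be. The 95% interval of the log2 fold change stayed within 1 of 0 for all 60 members in each of the 3 comparisons with untreated cells. It stayed within 0.5 of 0 for 57 of 60 members with PDGF-AB, against 82.9% of all genes. With AG1296 at 10 uM this held for 54 of 60, against 82.1% of all genes, and with AG1296 at 1 uM for 56 of 60, against 80.1%. The interval for Mki67, the standard proliferation marker, was -0.29 to 0.23 with PDGF-AB, -0.17 to 0.35 with AG1296 at 10 uM and -0.35 to 0.17 with AG1296 at 1 uM. Its probe set was among the dim ones, at 4.50 to 5.04.

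**Figure D1:**
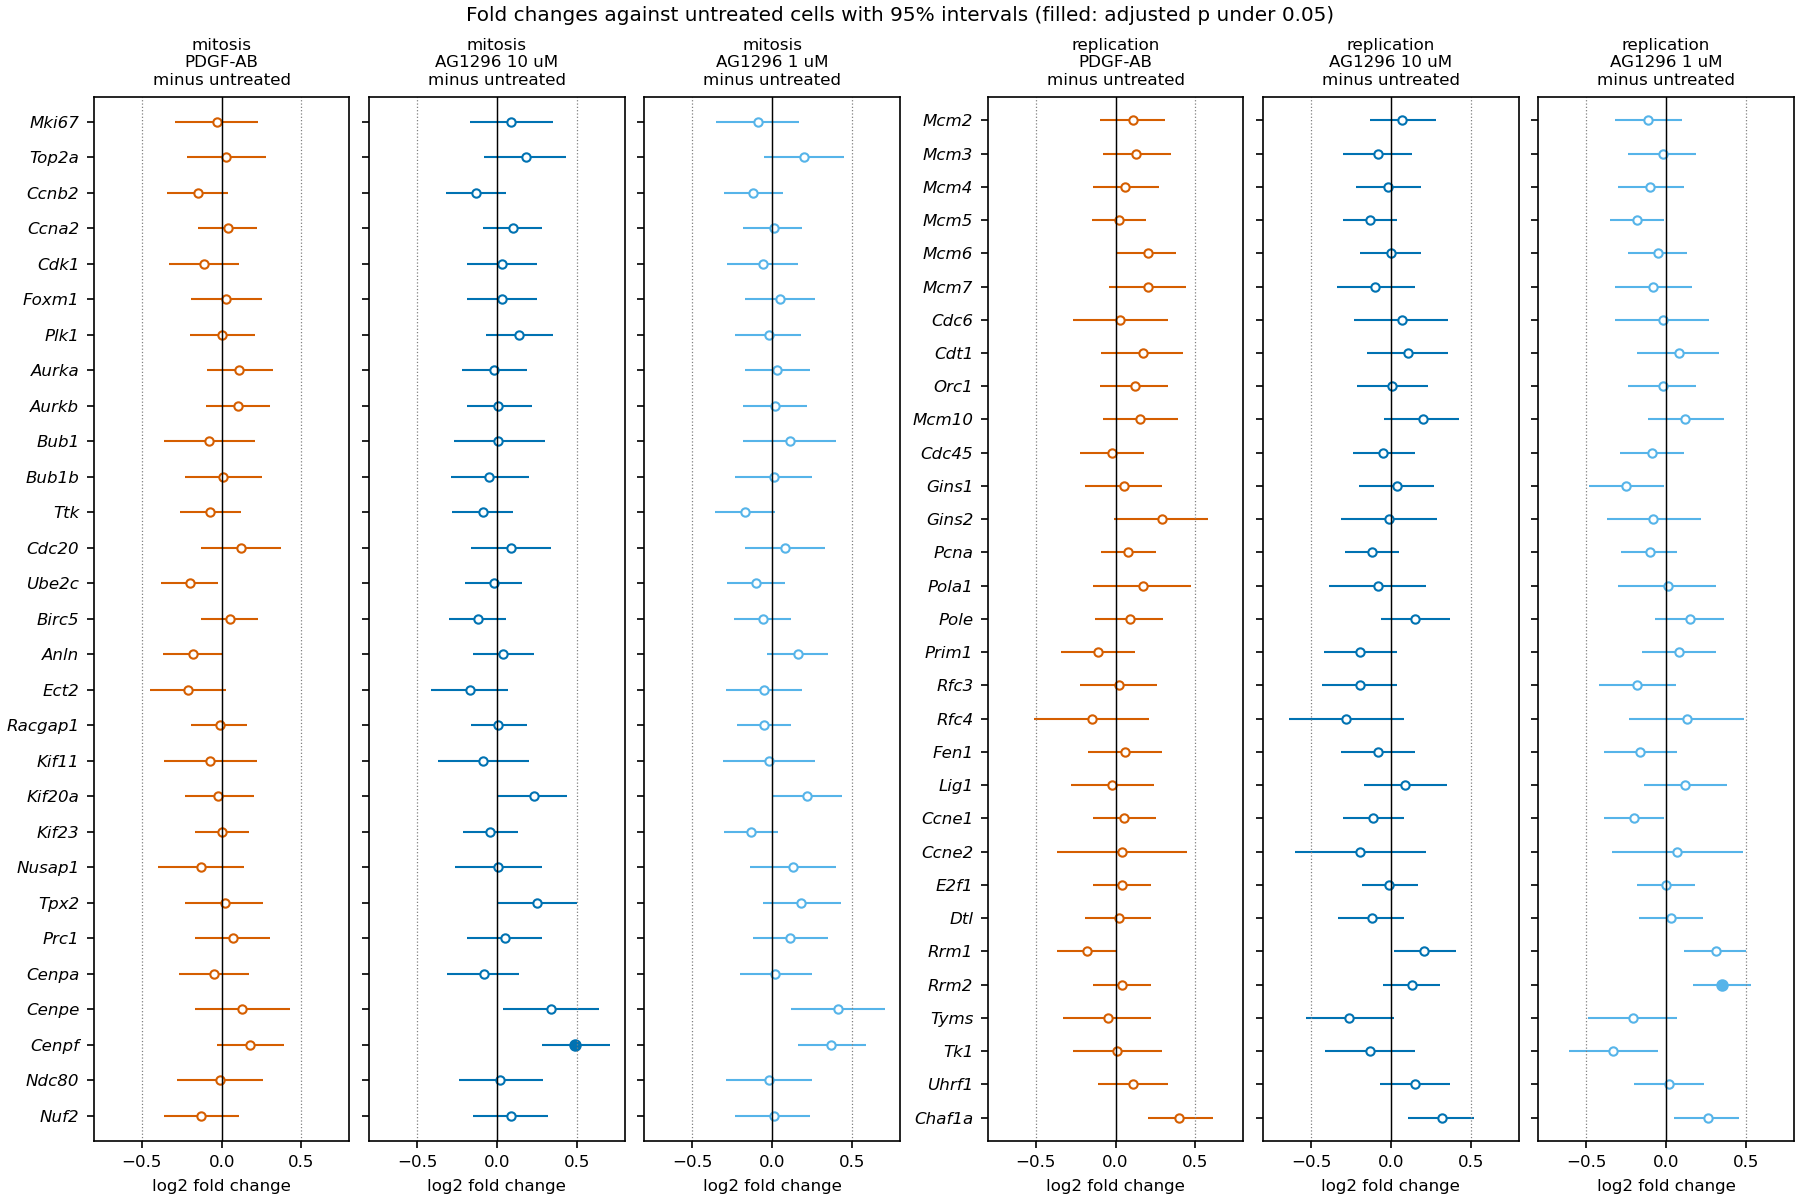
Log2 fold change of each member against untreated cells (horizontal axis, log2 units) with its 95% interval, mitosis members and replication members in separate panels, for PDGF-AB, AG1296 at 10 uM and AG1296 at 1 uM. Filled points passed an adjusted p of 0.05: Cenpf with AG1296 at 10 uM and Rrm2 with AG1296 at 1 uM are the filled points, and no interval reaches 1 on either side.

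The mitosis and replication members differed in which way their small differences leaned. With PDGF-AB, the log2 fold change was positive for 13 of 29 mitosis members and for 25 of 31 replication members, while 52.9% of all genes were positive. The medians were -0.01 for mitosis, 0.05 for replication and 0.01 for all genes. Leaving out PDGF-AB replicate 1 left 16 of 29 and 19 of 31 positive, against 50.4% of all genes, so the lean of the replication members rested in part on that array. The median of the replication members stayed positive with any single array left out, between 0.03 and 0.08. With AG1296 at 10 uM, 19 of 29 mitosis and 12 of 31 replication members were positive against untreated cells (52.2% of all genes), with medians of 0.02 and -0.02. Without AG1296 10 uM replicate 2 or untreated replicate 3, 13 of 29 mitosis members were positive and their median was -0.01. With AG1296 at 1 uM, 17 of 29 and 13 of 31 were positive (46.6% of all genes), with medians of 0.01 and -0.02, and without AG1296 1 uM replicate 2 the mitosis count was 14 of 29, with a median of -0.01. These counts are descriptions of the listed genes, and no test was made of them.

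Averaged over members, the mitosis set stood at 6.54 ± 0.03 with PDGF-AB, 6.60 ± 0.09 with AG1296 at 10 uM, 6.60 ± 0.03 with AG1296 at 1 uM and 6.55 ± 0.05 in untreated cells (SD, n = 3 each). The replication set stood at 6.42 ± 0.03 with PDGF-AB, 6.34 ± 0.06 with AG1296 at 10 uM, 6.34 ± 0.03 with AG1296 at 1 uM and 6.36 ± 0.03 in untreated cells. For the mitosis set the arrays overlapped between groups, except that all PDGF-AB arrays (6.50 to 6.56) lay below all AG1296 1 uM arrays (6.58 to 6.64). The replication set had its highest group mean with PDGF-AB. There all PDGF-AB arrays (6.40 to 6.46) lay above all untreated arrays (6.33 to 6.39) and all AG1296 1 uM arrays (6.30 to 6.37). AG1296 10 uM replicate 2, at 6.41, lay within the range of the PDGF-AB arrays. PDGF-AB replicate 1 was the array with the highest value for 13 of the 31 replication members and with the lowest value for 9 of the 29 mitosis members. AG1296 10 uM replicate 2 was the highest array for 8 of the 29 mitosis members. In every group, replicate 2 had the highest mean of the mitosis set.

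**Figure D2:**
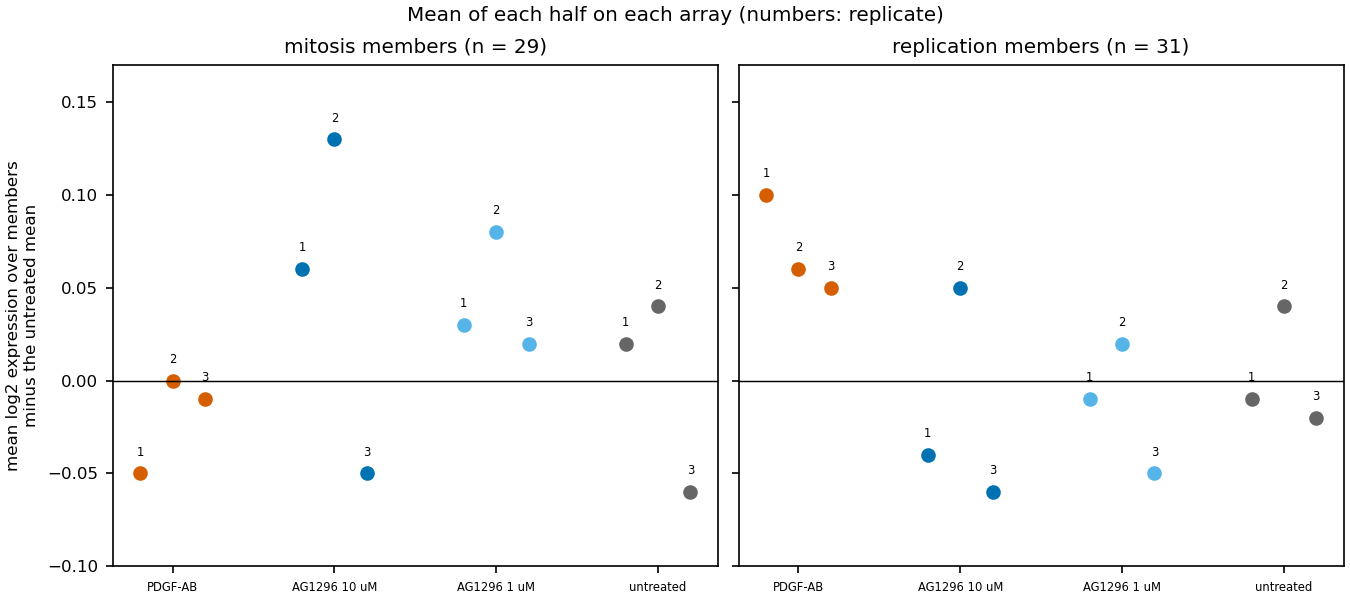
Mean log2 expression over the mitosis members (left) and the replication members (right) on each of the 12 arrays, minus the untreated mean (vertical axis, log2 units), numbered by replicate within the group. All 3 PDGF-AB arrays lie above 0 for the replication members, from 0.05 to 0.10, while for the mitosis members they lie from -0.05 to 0.00.

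**Figure D3:**
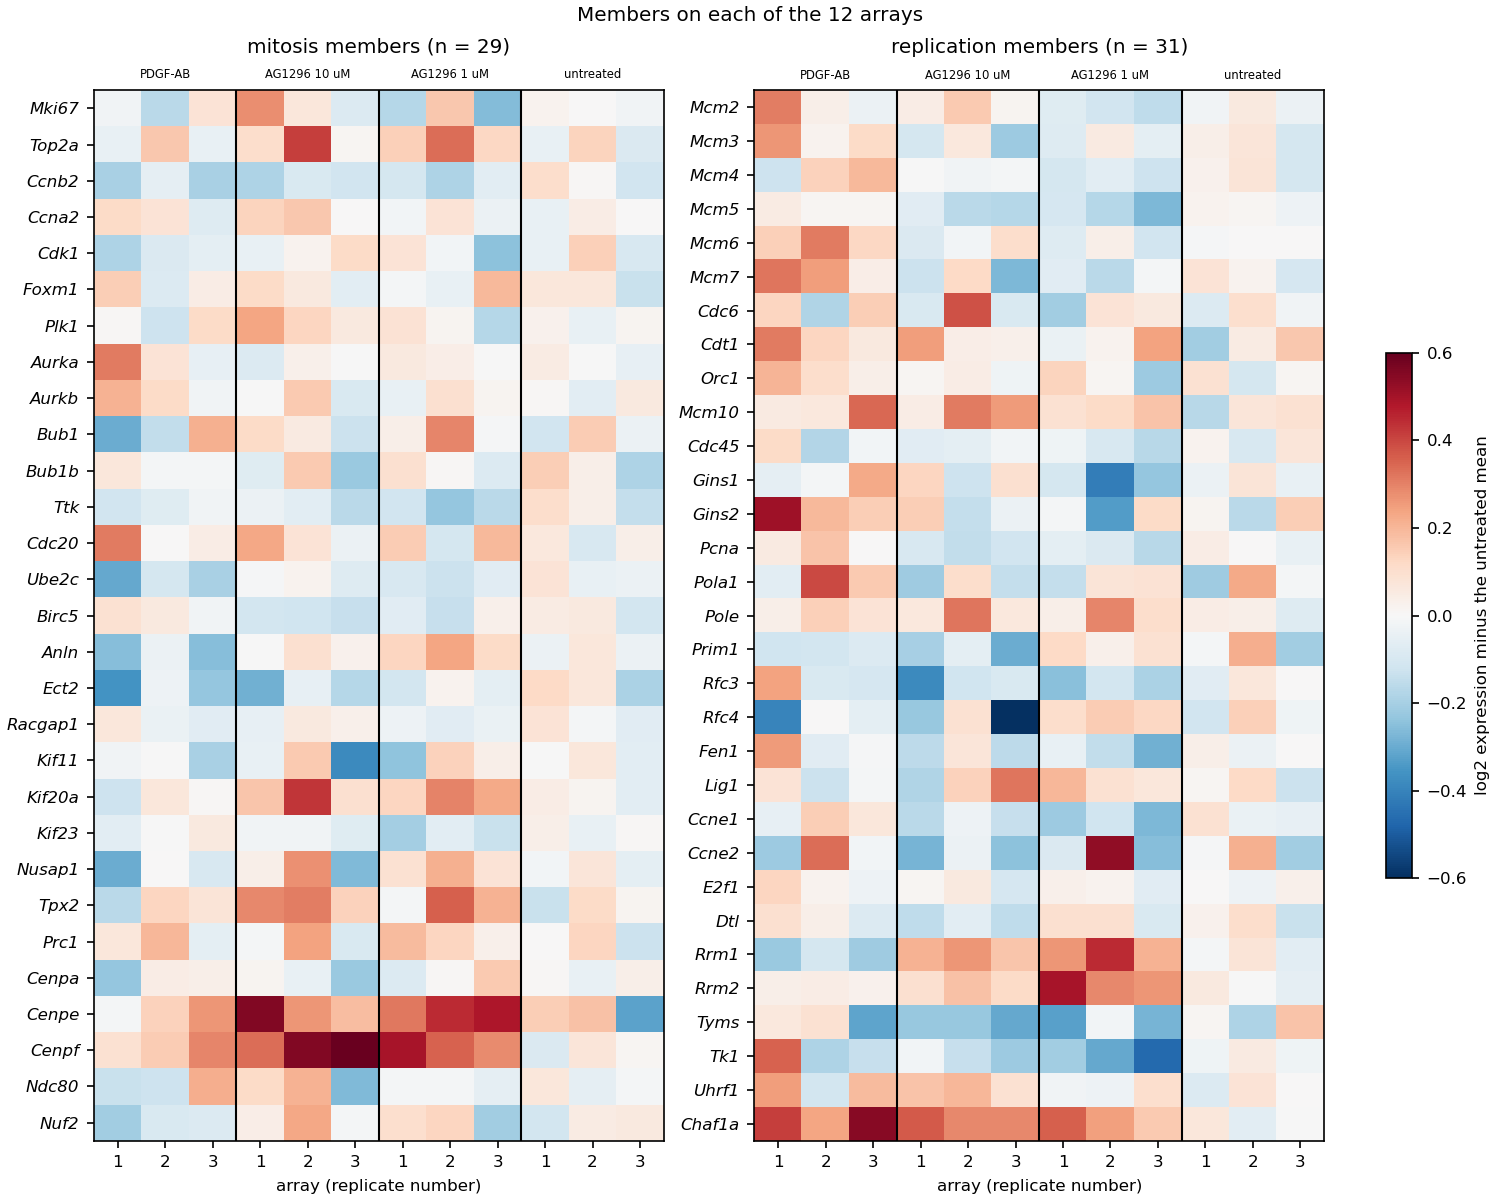
Log2 expression of every member (rows, grouped by role) on every array (columns), minus that member's untreated mean. The colour scale stops at 0.6 log2 units on either side. PDGF-AB replicate 1 holds the highest value of 13 replication members, and Rrm1 and Rrm2 are higher on the AG1296 1 uM arrays than on the untreated ones.

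Markers of other cell types were read on the same arrays. The mean of 8 leukocyte markers was 3.70 to 3.84 on the PDGF-AB arrays, 3.50 to 3.57 with AG1296 at 10 uM, 3.58 to 3.64 with AG1296 at 1 uM and 3.49 to 3.56 in untreated cells, with 1 or 2 of the 8 above the array median in each group. The mean of 8 pericyte and smooth muscle markers was 4.36 to 4.40, 4.32 to 4.37, 4.01 to 4.13 and 4.15 to 4.25 in the same order of groups, with 2 to 4 of 8 above the median. The mean of 8 endothelial markers was 3.18 to 3.42 with PDGF-AB, 3.18 to 3.34 and 3.28 to 3.36 with AG1296 at 10 uM and 1 uM, and 3.17 to 3.32 in untreated cells. The mean of 7 cardiomyocyte markers lay between 3.60 and 3.76 in all groups. Single markers changed more than any of the 60 cell-cycle genes. Cd53, a leukocyte tetraspanin, rose by 1.77 with PDGF-AB, at 5.52 ± 0.63 against 3.75 ± 0.17 in untreated cells (SD, n = 3 each, limma adjusted p = 0.00584). It was the single marker called in that comparison, where 0.331% of all genes were called. Of the 8 leukocyte markers 5 were positive there, with a median of 0.04, against 52.9% of all genes. With AG1296 at 1 uM, the fibroblast proteoglycan gene Dcn rose by 1.70 (adjusted p = 8.21e-07), the receptor gene Pdgfra fell by 0.91 (adjusted p = 3.84e-05), the pericyte marker Mcam fell by 1.42 (adjusted p = 1.15e-06) and the endothelial marker Tek rose by 0.73 (adjusted p = 0.000761), all against untreated cells. Col1a1 and Col3a1, which encode fibrillar collagens, also rose at this dose, by 0.51 and 0.37 (adjusted p = 0.0131 and 0.048). In that comparison 3.2% of all genes were called. The pericyte and the endothelial markers were each positive in 4 of 8, with medians of 0.00 and -0.02. Of the 11 fibroblast markers 7 were positive, against 46.6% of all genes. With AG1296 at 10 uM, Dcn, Pdgfra, Mcam, Col1a1 and Col3a1 were called in the same directions, by 0.75, -0.40, -0.59, 0.53 and 0.54. The smooth muscle gene Myh11 rose by 0.54. At this dose 1.88% of all genes were called. Of the 8 pericyte and smooth muscle markers 6 were positive, and of the 11 fibroblast markers 8, against 52.2% of all genes. With PDGF-AB relative to AG1296 at 10 uM and at 1 uM, 3.42% and 5.21% of all genes were called. Of the fibroblast markers, Dcn fell by 1.21 and 2.16, Fstl1 fell by 0.48 and 0.42, and Pdgfra rose by 0.53 and 1.04. Fn1 fell by 0.55 relative to 10 uM, and Thy1 and Ddr2 rose by 0.41 and 0.33 relative to 1 uM. In both comparisons 4 of 11 fibroblast markers were positive. The leukocyte gene Lyz2 fell by 1.02 and 0.79, while Cd53 rose by 2.23 and 1.73. Of the 8 leukocyte markers, 6 and 5 were positive in these comparisons (50.8% and 56% of all genes). The cardiomyocyte marker Tnnt2 rose by 0.46 and 0.38, while 3 and 5 of the 7 cardiomyocyte markers were positive. Myh11 fell by 0.60 relative to 10 uM. Relative to 1 uM, the pericyte markers Mcam, Cspg4 and Notch3 rose by 1.12, 0.66 and 0.54, and Tek fell by 0.49. Of the 8 pericyte and smooth muscle markers 4 were positive relative to 10 uM and 6 relative to 1 uM, and of the 8 endothelial markers 4 in both. Between the doses, Pdgfra and Mcam were higher at 10 uM than at 1 uM, by 0.51 and 0.83. Dcn differed by -0.96, and 0.376% of all genes were called there. The part of these shifts in the cell-cycle values was not tested.

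The mitosis and replication members differed in sequence features near their starts that the choice of genes did not use. Promoters of cell-cycle genes are known for 3 elements: the cell cycle homology region (CHR), which recruits the MuvB complexes that silence mitotic genes in resting cells and activate them in G2, the CCAAT box, which binds NF-Y, and the E2F site of G1/S genes. Windows of 200 bases, from 150 bases before to 50 after the annotated start, were searched in both strands in the RefSeq promoter table of build GRCm38.p6, which held 50 of the 60 members. The CHR was searched as TTTGAA or TTCGAA, the CCAAT box as CCAAT, and the E2F site as TTTCCCGC, TTTCGCGC, TTTGCCGC or TTTGGCGC. A CHR lay in 20 of 24 mitosis windows (83.3%), in 3 of 26 replication windows (11.5%) and in 9.93% of the windows of 15614 measured genes. A CCAAT box lay in 19 of 24 mitosis windows (79.2%) and 15 of 26 replication windows (57.7%), against 29.9% of all. An E2F site lay in 1 of 24 mitosis windows (4.17%, Cdk1) and 10 of 26 replication windows (38.5%), against 2.24% of all. CHR and CCAAT box stood together in 18 of 24 mitosis windows (75%), in 1 of 26 replication windows (3.85%, Cdc45) and in 3.2% of all. A match is a description of these letters and shows no binding.
The windows of the 4 called members and of 1 uncalled member of each set, the mitotic cyclin gene Ccnb2 and the helicase gene Mcm6, are printed 5′ to 3′ along the gene, with matches to the searched elements in capitals on either strand (ATTGG and TTCAAA are CCAAT and TTTGAA read on the other strand). They lie at chr1:189688037-189688236 (minus strand) for Cenpf, chr9:22389157-22389356 (minus strand) for Anln, chr9:70421505-70421704 (minus strand) for Ccnb2, chr7:102441545-102441744 (plus strand) for Rrm1, chr12:24708104-24708303 (plus strand) for Rrm2 and chr1:128359656-128359855 (minus strand) for Mcm6, all in GRCm38.p6.
Cenpf: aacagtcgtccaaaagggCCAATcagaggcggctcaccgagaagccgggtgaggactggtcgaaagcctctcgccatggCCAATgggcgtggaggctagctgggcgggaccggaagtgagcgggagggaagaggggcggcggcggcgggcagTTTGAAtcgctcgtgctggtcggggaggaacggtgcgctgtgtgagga
Anln: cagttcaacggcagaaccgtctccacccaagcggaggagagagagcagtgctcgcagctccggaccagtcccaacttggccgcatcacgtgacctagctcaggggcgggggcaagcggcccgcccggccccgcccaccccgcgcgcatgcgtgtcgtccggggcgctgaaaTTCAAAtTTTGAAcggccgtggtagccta
Ccnb2: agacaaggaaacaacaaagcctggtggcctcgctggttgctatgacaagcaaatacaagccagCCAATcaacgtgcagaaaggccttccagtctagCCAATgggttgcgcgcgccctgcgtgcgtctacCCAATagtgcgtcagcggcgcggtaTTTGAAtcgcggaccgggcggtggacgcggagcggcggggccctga
Rrm1: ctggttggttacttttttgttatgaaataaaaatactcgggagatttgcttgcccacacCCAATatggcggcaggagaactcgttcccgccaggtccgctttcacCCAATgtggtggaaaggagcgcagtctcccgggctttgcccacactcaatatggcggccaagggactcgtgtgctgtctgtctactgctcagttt
Rrm2: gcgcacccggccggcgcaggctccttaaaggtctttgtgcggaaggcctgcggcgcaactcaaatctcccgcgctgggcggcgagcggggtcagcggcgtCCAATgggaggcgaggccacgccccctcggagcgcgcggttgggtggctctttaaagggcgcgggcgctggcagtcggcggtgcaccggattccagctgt
Mcm6: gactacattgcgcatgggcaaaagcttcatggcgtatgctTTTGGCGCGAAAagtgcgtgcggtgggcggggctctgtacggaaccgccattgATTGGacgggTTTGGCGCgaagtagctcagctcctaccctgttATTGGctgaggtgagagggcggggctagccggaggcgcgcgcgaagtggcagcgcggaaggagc
Of the called mitosis members, Cenpf held a CHR just after its annotated start and 2 CCAAT boxes, and Anln held 2 CHR matches, 1 in each orientation, and no CCAAT box. Of the called replication members, Rrm1 held 2 CCAAT boxes, Rrm2 held 1, and neither held an E2F site as spelled here. Mcm6 held 3 E2F matches, 2 of which overlap, and 2 CCAAT boxes.

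Among the mitosis members, the kinetochore genes held the single call against untreated cells. Cenpf encodes a large protein of the outer kinetochore, and its promoter carried the CHR and CCAAT elements shown above. Its log2 values were 4.61, 4.67 and 4.81 with PDGF-AB, 4.85, 5.07 and 5.11 with AG1296 at 10 uM, 5.01, 4.87 and 4.80 with AG1296 at 1 uM, and 4.43, 4.59 and 4.53 in untreated cells. All 3 arrays of each treated group lay above all 3 untreated arrays, and the PDGF-AB arrays overlapped those of AG1296 at 1 uM. With AG1296 at 10 uM, Cenpf rose by 0.49 ± 0.10 (SE, adjusted p = 0.0192, 95% interval 0.28 to 0.71), a fold of 1.41. The difference was 0.37 ± 0.10 (adjusted p = 0.0603) with AG1296 at 1 uM and 0.18 ± 0.10 (adjusted p = 0.653) with PDGF-AB. The call at 10 uM no longer passed without AG1296 10 uM replicate 2 (adjusted p = 0.0884) or 3 (0.0825), or without untreated replicate 1 (0.094) or 3 (0.0689). Cenpe, the kinesin of the kinetochore that carries chromosomes to the spindle equator, had values of 3.97, 4.12 and 4.25 with PDGF-AB, 4.54, 4.25 and 4.17 with AG1296 at 10 uM, 4.30, 4.43 and 4.47 with AG1296 at 1 uM, and 4.13, 4.16 and 3.66 in untreated cells. It too was higher on all AG1296 arrays than on the untreated arrays, and its differences of 0.34 ± 0.14 (adjusted p = 0.353) at 10 uM and 0.41 ± 0.14 (adjusted p = 0.165) at 1 uM did not pass. Of the 5 centromere and kinetochore members, 4 were positive at either dose of AG1296, with medians of 0.09 at 10 uM and 0.02 at 1 uM, and with quantile normalization 2 of 5 were positive at 1 uM.

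The genes that time entry into mitosis lay close together in all groups. Cdk1, the kinase that drives mitosis, had log2 values of 7.22, 7.32 and 7.35 with PDGF-AB, 7.36, 7.43 and 7.52 with AG1296 at 10 uM, 7.49, 7.39 and 7.16 with AG1296 at 1 uM, and 7.36, 7.55 and 7.31 in untreated cells. The groups overlapped, except that all PDGF-AB arrays lay below all AG1296 10 uM arrays, and the difference from untreated cells was -0.11 ± 0.10 (adjusted p = 0.822) with PDGF-AB. Ccnb2, a B-type cyclin that partners Cdk1, stood at 7.49, 7.63 and 7.49 with PDGF-AB, 7.50, 7.59 and 7.57 with AG1296 at 10 uM, 7.58, 7.50 and 7.62 with AG1296 at 1 uM, and 7.79, 7.69 and 7.57 in untreated cells. Its arrays overlapped between all groups, with differences of -0.15 ± 0.09, -0.13 ± 0.09 and -0.12 ± 0.09 for PDGF-AB, AG1296 at 10 uM and AG1296 at 1 uM against untreated cells. Ccna2, the A-type cyclin of S phase and G2, measured 7.94, 7.91 and 7.75 with PDGF-AB, 7.96, 7.99 and 7.83 with AG1296 at 10 uM, 7.81, 7.91 and 7.79 with AG1296 at 1 uM, and 7.78, 7.87 and 7.83 in untreated cells. These arrays overlapped too, and the intervals against untreated cells ran -0.15 to 0.22 with PDGF-AB, -0.09 to 0.28 with AG1296 at 10 uM and -0.18 to 0.19 at 1 uM. Foxm1, the transcription factor that activates many G2 and mitosis genes, read 5.78, 5.55 and 5.68 with PDGF-AB, 5.75, 5.69 and 5.57 with AG1296 at 10 uM, 5.62, 5.59 and 5.83 with AG1296 at 1 uM, and 5.70, 5.70 and 5.50 in untreated cells. Its group means lay between 5.63 and 5.68, and the lowest adjusted p among the comparisons with untreated cells was 0.922.

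Mki67 encodes Ki-67, which coats mitotic chromosomes and is the usual stain for cycling cells. Its log2 values were 4.74, 4.60 and 4.84 with PDGF-AB, 5.04, 4.83 and 4.68 with AG1296 at 10 uM, 4.59, 4.92 and 4.50 with AG1296 at 1 uM, and 4.78, 4.76 and 4.74 in untreated cells. The highest array, at 5.04, was AG1296 10 uM replicate 1, the lowest, at 4.50, was AG1296 1 uM replicate 3, and all groups overlapped. Against untreated cells, Mki67 differed by -0.03 ± 0.12 (adjusted p = 0.972) with PDGF-AB, 0.09 ± 0.12 (adjusted p = 0.866) with AG1296 at 10 uM and -0.09 ± 0.12 (adjusted p = 0.858) with AG1296 at 1 uM. Top2a, the topoisomerase that untangles sister chromatids, had values of 7.53, 7.74 and 7.53 with PDGF-AB, 7.68, 7.99 and 7.59 with AG1296 at 10 uM, 7.72, 7.91 and 7.70 with AG1296 at 1 uM, and 7.53, 7.71 and 7.49 in untreated cells. Replicate 2 was highest in each group and the groups overlapped. The AG1296 differences were 0.18 ± 0.12 (adjusted p = 0.655) at 10 uM and 0.20 ± 0.12 (adjusted p = 0.523) at 1 uM. A second probe set of Top2a, with a mean of 1.49, lay far below the array medians and was not read.

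Of the mitotic kinases and checkpoint genes, Plk1, the polo kinase needed for spindle assembly and mitotic exit, had log2 values of 7.64, 7.51 and 7.75 with PDGF-AB, 7.87, 7.76 and 7.69 with AG1296 at 10 uM, 7.72, 7.65 and 7.46 with AG1296 at 1 uM, and 7.66, 7.59 and 7.65 in untreated cells. All AG1296 10 uM arrays lay above the untreated arrays, and the difference of 0.14 ± 0.10 (adjusted p = 0.676) did not pass. The 6 genes of this role (Plk1, Aurka, Aurkb, Bub1, Bub1b and Ttk) had medians of 0.01 with PDGF-AB, 0.00 with AG1296 at 10 uM and 0.02 with AG1296 at 1 uM, with a range of -0.17 to 0.14 over the 3 comparisons. Ube2c, the ubiquitin-conjugating enzyme of the anaphase promoting complex, read 6.79, 6.99 and 6.90 with PDGF-AB, 7.09, 7.12 and 7.02 with AG1296 at 10 uM, 7.0, 6.97 and 7.03 with AG1296 at 1 uM, and 7.18, 7.05 and 7.06 in untreated cells. The PDGF-AB and the AG1296 1 uM arrays all lay below the untreated arrays, and the differences were -0.20 ± 0.08 (adjusted p = 0.526) with PDGF-AB, -0.02 ± 0.08 (adjusted p = 0.963) with AG1296 at 10 uM and -0.10 ± 0.08 (adjusted p = 0.725) with AG1296 at 1 uM. Cdc20, the activator of the same complex, differed from untreated cells by 0.12, 0.09 and 0.08 in the same order.

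Of the 6 spindle motors and microtubule binders, 4 were positive at either dose of AG1296 and 0 passed (limma), with 2 of 6 at 10 uM and 1 of 6 at 1 uM under an unadjusted p of 0.05 (11.4% and 13.1% of all genes). Leaving out single arrays left 2 to 5 of 6 positive at 10 uM. Kif20a, a kinesin of the central spindle, had log2 values of 6.98, 7.17 and 7.11 with PDGF-AB, 7.27, 7.53 and 7.20 with AG1296 at 10 uM, 7.23, 7.40 and 7.33 with AG1296 at 1 uM, and 7.15, 7.12 and 7.04 in untreated cells. All arrays of both AG1296 groups lay above all PDGF-AB and all untreated arrays. The differences from untreated cells were 0.23 ± 0.10 (adjusted p = 0.396) at 10 uM and 0.22 ± 0.10 (adjusted p = 0.367) at 1 uM, against -0.02 ± 0.10 (adjusted p = 0.984) with PDGF-AB. Tpx2, which activates Aurora A and nucleates spindle microtubules, stood at 6.52, 6.81 and 6.76 with PDGF-AB, 6.97, 6.99 and 6.82 with AG1296 at 10 uM, 6.67, 7.04 and 6.89 with AG1296 at 1 uM, and 6.55, 6.80 and 6.70 in untreated cells. Its AG1296 10 uM arrays lay above the untreated arrays while the other groups overlapped with them, and the difference at 10 uM was 0.25 ± 0.12 (adjusted p = 0.433). The other spindle members, Kif11, Kif23, Nusap1 and Prc1, lay between -0.13 and 0.13 against untreated cells in all 3 treatments. With AG1296 at 10 uM, 5 of 29 mitosis members had all arrays above and 0 had all arrays below the untreated ones (9.78% of all genes above, 8.19% below). At 1 uM the counts were 5 above and 2 below (10.1% and 10.2%), and with PDGF-AB 1 above and 1 below (6.74% and 6.61%).

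Among the genes of cytokinesis, Anln encodes anillin, a scaffold of the contractile ring. It had log2 values of 7.91, 8.13 and 7.91 with PDGF-AB, 8.16, 8.26 and 8.19 with AG1296 at 10 uM, 8.29, 8.40 and 8.28 with AG1296 at 1 uM, and 8.13, 8.23 and 8.13 in untreated cells. The AG1296 1 uM arrays were the highest and lay above all arrays of the other groups, and PDGF-AB replicates 1 and 3 were the lowest. Against untreated cells Anln differed by -0.18 ± 0.09 (adjusted p = 0.598) with PDGF-AB, 0.04 ± 0.09 (adjusted p = 0.926) with AG1296 at 10 uM and 0.16 ± 0.09 (adjusted p = 0.487) with AG1296 at 1 uM. Ect2, the exchange factor that activates RhoA at the division plane, read 7.02, 7.35 and 7.15 with PDGF-AB, 7.09, 7.33 and 7.21 with AG1296 at 10 uM, 7.27, 7.40 and 7.32 with AG1296 at 1 uM, and 7.50, 7.45 and 7.19 in untreated cells. All groups overlapped, and its differences from untreated cells were -0.21 ± 0.11 (adjusted p = 0.639) with PDGF-AB, -0.17 ± 0.11 (adjusted p = 0.654) with AG1296 at 10 uM and -0.05 ± 0.11 (adjusted p = 0.932) with AG1296 at 1 uM. The 15 mitosis members not described one by one spanned 0.16 to 0.59 log2 units between their lowest and highest array. Their differences from untreated cells were -0.17 to 0.13, and their lowest adjusted p over the 6 comparisons was 0.306.

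**Figure D4:**
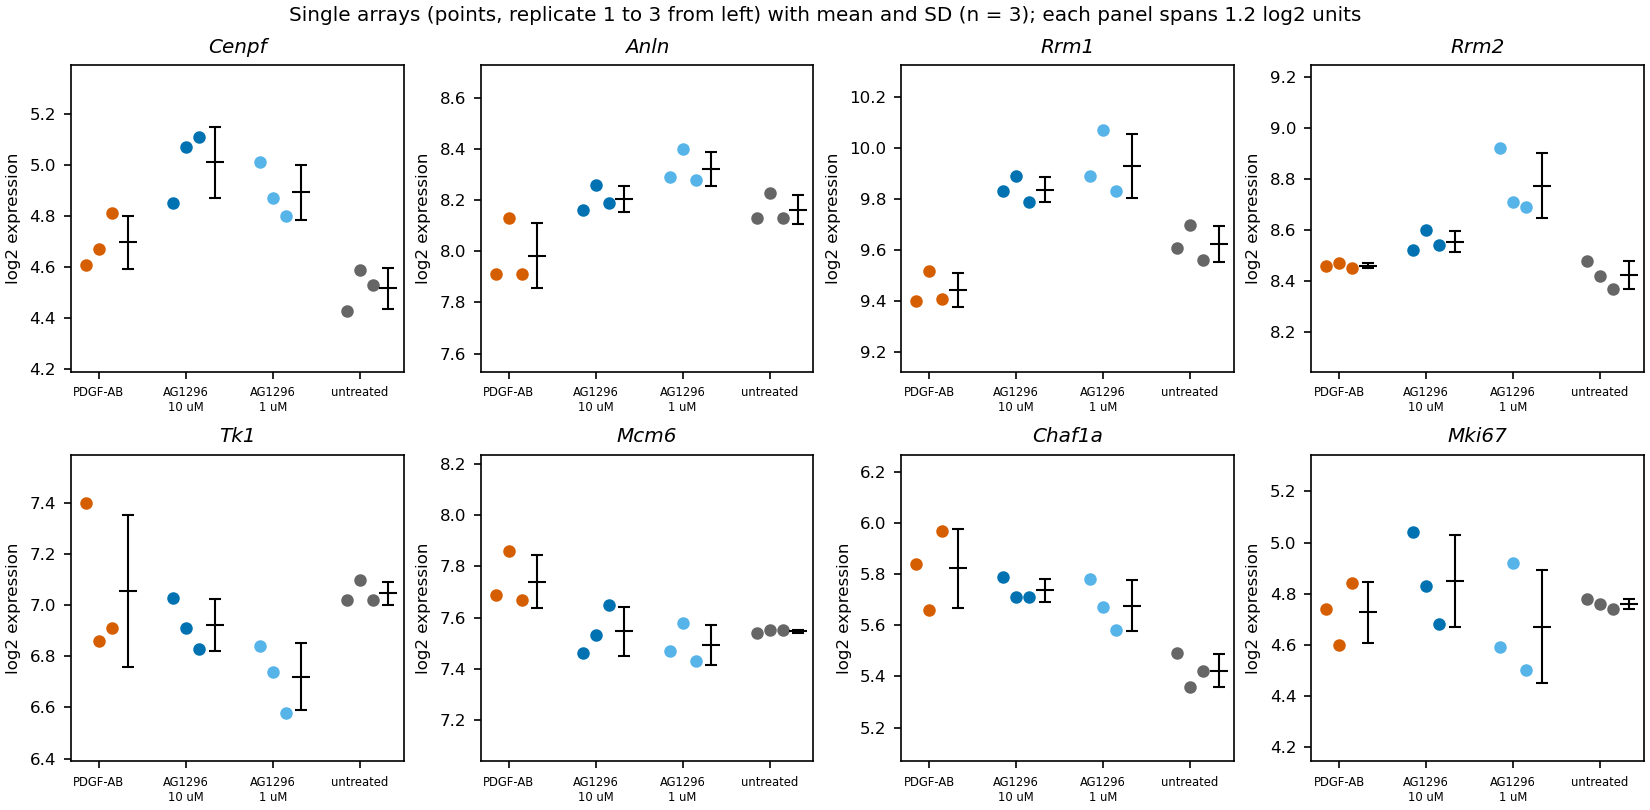
Log2 expression of Cenpf, Anln, Rrm1, Rrm2, Tk1, Mcm6, Chaf1a and Mki67 on single arrays (points, replicates 1 to 3 from left in each group), with the mean and SD (n = 3) beside them. Each panel spans 1.2 log2 units. The Rrm1 points are lowest with PDGF-AB and highest with AG1296 at 1 uM, the Chaf1a points of every treated group lie above the untreated ones, and the Mki67 points overlap in all groups.

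The replication members gave a more varied picture, led by the enzymes that make deoxynucleotides. Ribonucleotide reductase converts ribonucleotides into deoxynucleotides and is built from the large subunit Rrm1 and the small subunit Rrm2. Rrm1 had log2 values of 9.40, 9.52 and 9.41 with PDGF-AB, 9.83, 9.89 and 9.79 with AG1296 at 10 uM, 9.89, 10.07 and 9.83 with AG1296 at 1 uM, and 9.61, 9.70 and 9.56 in untreated cells. All PDGF-AB arrays lay below all untreated arrays, and all AG1296 arrays lay above them. The differences from untreated cells did not pass, with -0.18 ± 0.09 (adjusted p = 0.606) for PDGF-AB, 0.21 ± 0.09 (adjusted p = 0.361) for AG1296 at 10 uM and 0.31 ± 0.09 (adjusted p = 0.0936) for AG1296 at 1 uM. Rrm2 had values of 8.46, 8.47 and 8.45 with PDGF-AB, 8.52, 8.60 and 8.54 with AG1296 at 10 uM, 8.92, 8.71 and 8.69 with AG1296 at 1 uM, and 8.48, 8.42 and 8.37 in untreated cells. The AG1296 1 uM arrays lay above all others, with replicate 1 highest at 8.92, and the AG1296 10 uM arrays lay between them and the untreated arrays. With AG1296 at 1 uM, Rrm2 rose by 0.35 ± 0.08 (SE, adjusted p = 0.0391, 95% interval 0.17 to 0.53), a fold of 1.27. This call no longer passed without any 1 array other than PDGF-AB replicate 1 (adjusted p = 0.0509 to 0.189, highest without AG1296 1 uM replicate 1). The differences were 0.13 ± 0.08 (adjusted p = 0.649) with AG1296 at 10 uM and 0.04 ± 0.08 (adjusted p = 0.945) with PDGF-AB.

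The thymidylate enzymes had differences of the opposite sign with AG1296. Tk1, the thymidine kinase that salvages thymidine in S phase, had log2 values of 7.40, 6.86 and 6.91 with PDGF-AB, 7.03, 6.91 and 6.83 with AG1296 at 10 uM, 6.84, 6.74 and 6.58 with AG1296 at 1 uM, and 7.02, 7.10 and 7.02 in untreated cells. PDGF-AB replicate 1 was the highest array at 7.40, and the AG1296 1 uM arrays all lay below the untreated arrays. The difference with AG1296 at 1 uM was -0.33 ± 0.13 (adjusted p = 0.269), and a second probe set of Tk1 gave -0.23. Tyms, the enzyme that makes thymidylate from deoxyuridylate, read 7.17, 7.20 and 6.79 with PDGF-AB, 6.88, 6.88 and 6.80 with AG1296 at 10 uM, 6.78, 7.09 and 6.83 with AG1296 at 1 uM, and 7.12, 6.92 and 7.28 in untreated cells. Its AG1296 10 uM arrays lay below the untreated arrays and the other groups overlapped with them, with differences of -0.26 ± 0.13 (adjusted p = 0.493) at 10 uM, -0.21 ± 0.13 (adjusted p = 0.563) at 1 uM and -0.05 ± 0.13 (adjusted p = 0.947) with PDGF-AB. The 4 deoxynucleotide genes were split, with Rrm1 and Rrm2 positive and Tk1 and Tyms negative at both doses of AG1296, and 1 of the 4 called at 1 uM (background 3.2%).

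The licensing genes shared a small positive difference with the ligand. All 9 (Mcm2 to Mcm7, Cdc6, Cdt1 and Orc1) were positive with PDGF-AB against untreated cells (52.9% of all genes), between 0.02 and 0.20 with a median of 0.12. Of these, 0 of 9 passed (background 0.331%), and 1 of 9 had an unadjusted p under 0.05, against 8.55% of all genes. Leaving out single arrays left 8 or 9 of 9 positive, as did quantile normalization and median centring. Against untreated cells 4 of 9 were positive with AG1296 at 10 uM and 1 of 9 with AG1296 at 1 uM (52.2% and 46.6% of all genes), with medians of 0.00 and -0.05. Mcm6, a helicase subunit, had log2 values of 7.69, 7.86 and 7.67 with PDGF-AB, 7.46, 7.53 and 7.65 with AG1296 at 10 uM, 7.47, 7.58 and 7.43 with AG1296 at 1 uM, and 7.54, 7.55 and 7.55 in untreated cells. All 3 PDGF-AB arrays lay above all other arrays, by 0.20 ± 0.09 (adjusted p = 0.559) against untreated cells, and its interval reached down to 0.01. Mcm2, another subunit, stood at 7.75, 7.48 and 7.41 with PDGF-AB, 7.49, 7.60 and 7.46 with AG1296 at 10 uM, 7.37, 7.33 and 7.29 with AG1296 at 1 uM, and 7.42, 7.50 and 7.41 in untreated cells. PDGF-AB replicate 1 was highest at 7.75 and the AG1296 1 uM arrays were lowest, with differences of 0.11 ± 0.10 (adjusted p = 0.812) with PDGF-AB, 0.07 ± 0.10 (adjusted p = 0.86) with AG1296 at 10 uM and -0.11 ± 0.10 (adjusted p = 0.726) with AG1296 at 1 uM. Mcm7 read 7.52, 7.45 and 7.24 with PDGF-AB, 7.07, 7.32 and 6.93 with AG1296 at 10 uM, 7.13, 7.04 and 7.19 with AG1296 at 1 uM, and 7.28, 7.22 and 7.10 in untreated cells. Its PDGF-AB and untreated arrays overlapped, and the difference was 0.20 ± 0.11 (adjusted p = 0.658). Cdc6, which loads the helicase, measured 5.79, 5.48 and 5.81 with PDGF-AB, 5.57, 6.04 and 5.57 with AG1296 at 10 uM, 5.45, 5.74 and 5.72 with AG1296 at 1 uM, and 5.58, 5.76 and 5.64 in untreated cells. Its arrays overlapped in all comparisons, with differences from untreated cells of 0.03, 0.07 and -0.02 for PDGF-AB, AG1296 at 10 uM and AG1296 at 1 uM.

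Of the genes that fire origins, Gins2, a subunit of the complex that activates the helicase, had log2 values of 7.02, 6.71 and 6.66 with PDGF-AB, 6.66, 6.37 and 6.48 with AG1296 at 10 uM, 6.50, 6.18 and 6.63 with AG1296 at 1 uM, and 6.53, 6.35 and 6.66 in untreated cells. PDGF-AB replicate 1 was highest at 7.02, replicate 2 was lowest among both the AG1296 groups and the untreated cells, and the PDGF-AB arrays overlapped the untreated ones. The difference was 0.29 ± 0.14 (adjusted p = 0.598) with PDGF-AB, -0.01 ± 0.14 (adjusted p = 0.993) with AG1296 at 10 uM and -0.08 ± 0.14 (adjusted p = 0.901) with AG1296 at 1 uM. Mcm10, Cdc45 and Gins1, which act at the same step, differed from untreated cells by -0.02 to 0.15 with PDGF-AB.

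At the replication fork, Pcna, the sliding clamp of the polymerases, had log2 values of 8.84, 8.96 and 8.79 with PDGF-AB, 8.69, 8.64 and 8.67 with AG1296 at 10 uM, 8.73, 8.70 and 8.62 with AG1296 at 1 uM, and 8.83, 8.79 and 8.74 in untreated cells. Arrays of both AG1296 groups lay below all untreated arrays, and the differences were -0.12 ± 0.08 (adjusted p = 0.662) at 10 uM and -0.10 ± 0.08 (adjusted p = 0.672) at 1 uM, against 0.08 ± 0.08 (adjusted p = 0.844) with PDGF-AB. A second probe set of Pcna differed by -0.12, -0.11 and 0.06 in these comparisons. Rfc4, a subunit of the clamp loader, varied more between arrays than most members, with a residual SD of 0.24, and stood at 5.90, 6.30 and 6.24 with PDGF-AB, 6.07, 6.39 and 5.59 with AG1296 at 10 uM, 6.40, 6.45 and 6.42 with AG1296 at 1 uM, and 6.18, 6.44 and 6.27 in untreated cells. AG1296 10 uM replicate 3 was the lowest array at 5.59 and the intervals were wide, -0.64 to 0.08 at 10 uM and -0.51 to 0.21 with PDGF-AB. The 8 fork genes had medians of 0.04 with PDGF-AB, -0.10 with AG1296 at 10 uM and 0.04 with AG1296 at 1 uM. In each, 0 of 8 passed (0.331%, 1.88% and 3.2% of all genes), with 0 of 8 at an unadjusted p under 0.05 (8.55%, 11.4% and 13.1%).

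Of the 4 regulators of the G1/S step, 0 passed against untreated cells in any treatment (0.331%, 1.88% and 3.2% of all genes called). Ccne1, the cyclin that with Cdk2 starts S phase, had log2 values of 7.07, 7.27 and 7.19 with PDGF-AB, 6.96, 7.09 and 6.98 with AG1296 at 10 uM, 6.90, 7.0 and 6.85 with AG1296 at 1 uM, and 7.21, 7.08 and 7.07 in untreated cells. All AG1296 1 uM arrays lay below the untreated arrays, with a difference of -0.20 ± 0.09 (adjusted p = 0.338), and the difference was 0.05 ± 0.09 (adjusted p = 0.91) with PDGF-AB. E2f1, the activator of many replication genes, read 6.75, 6.64 and 6.59 with PDGF-AB, 6.63, 6.68 and 6.52 with AG1296 at 10 uM, 6.65, 6.64 and 6.55 with AG1296 at 1 uM, and 6.62, 6.59 and 6.65 in untreated cells. Every group overlapped, and the intervals were -0.14 to 0.22 with PDGF-AB, -0.18 to 0.17 with AG1296 at 10 uM and -0.18 to 0.18 with AG1296 at 1 uM. Ccne2 had the largest residual SD of the replication members, 0.28. Its intervals were wider, at -0.37 to 0.45, -0.60 to 0.22 and -0.34 to 0.48 in the same order. The 4 members of this role were positive with PDGF-AB by 0.02 to 0.05 and negative with AG1296 at 10 uM by -0.01 to -0.19. Without PDGF-AB replicate 1, 2 of the 4 were positive with PDGF-AB, and with median centring 3 of the 4.

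Chaf1a had the largest difference of the 60 with PDGF-AB. It encodes the large subunit of chromatin assembly factor 1, which deposits histones on new DNA. Its log2 values were 5.84, 5.66 and 5.97 with PDGF-AB, 5.79, 5.71 and 5.71 with AG1296 at 10 uM, 5.78, 5.67 and 5.58 with AG1296 at 1 uM, and 5.49, 5.36 and 5.42 in untreated cells. All 9 treated arrays lay above all 3 untreated arrays, and the PDGF-AB arrays were spread most. The differences were 0.40 ± 0.09 (adjusted p = 0.14) with PDGF-AB, 0.32 ± 0.09 (adjusted p = 0.144) with AG1296 at 10 uM and 0.26 ± 0.09 (adjusted p = 0.222) with AG1296 at 1 uM, and 0 of the 3 passed over all genes. It passed with PDGF-AB (adjusted p = 0.0362) and AG1296 at 10 uM (0.0415) when the genes tested were limited to those above the median brightness. The 17 replication members not described one by one spanned 0.26 to 0.81 log2 units between their lowest and highest array. Their differences from untreated cells were -0.25 to 0.20, and their lowest adjusted p over the 6 comparisons was 0.173. With PDGF-AB, 2 of 31 replication members had all arrays above and 1 had all arrays below the untreated ones (6.74% and 6.61% of all genes). With AG1296 at 10 uM these counts were 5 and 4 (9.78% and 8.19%), and at 1 uM 3 and 8 (10.1% and 10.2%).

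The 2 doses of AG1296 were compared to see whether the members followed the dose. Between 10 uM and 1 uM, 0 of 60 members passed (limma, background 0.376%), and 4 of 60 had an unadjusted p under 0.05, against 9.07% of all genes. The largest difference of the 60 was -0.41 ± 0.17 (adjusted p = 0.464), for Rfc4, and Rrm2 differed by -0.22 ± 0.08 (adjusted p = 0.424). All AG1296 10 uM arrays of Rrm2 lay below all 1 uM arrays, so its highest level was at the lower dose. The log2 fold change was positive for 14 of 29 mitosis and 17 of 31 replication members (55.1% of all genes), with medians of -0.01, 0.03 and, for all genes, 0.02. Without AG1296 10 uM replicate 3, 21 of 29 mitosis members were positive, with a median of 0.05. The arrays did not overlap for 0 mitosis and 2 replication members higher at 10 uM (8.88% of all genes) and for 1 and 3 lower (7.03%). The 95% interval stayed within 0.5 of 0 for 56 of 60 members, against 82.7% of all genes, and within 1 for all 60.

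PDGF-AB was set against each dose of AG1296 to ask how the members differed between cells given the ligand and cells given the inhibitor. Both comparisons use the same PDGF-AB arrays. Against AG1296 at 10 uM, 1 of 60 members was called, Rrm1, which was lower with PDGF-AB (background 3.42%). Against AG1296 at 1 uM, 3 of 60 were called, Rrm1, Rrm2 and Anln, all lower with PDGF-AB (background 5.21%). At an unadjusted p under 0.05 there were 7 of 60 and 13 of 60, against 14.1% and 16.9% of all genes.

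Rrm1 had the lowest adjusted p of any member. Its PDGF-AB arrays, 9.40 to 9.52, lay below its AG1296 10 uM arrays, 9.79 to 9.89, and below its AG1296 1 uM arrays, 9.83 to 10.07. With PDGF-AB it fell by 0.40 (SE 0.09, adjusted p = 0.0249, 95% interval -0.59 to -0.20) relative to 10 uM and by 0.49 (SE 0.09, adjusted p = 0.00427, 95% interval -0.68 to -0.30) relative to 1 uM. The call against 1 uM held in 20 of 20 alternative settings, with an adjusted p of at most 0.0336. The call against 10 uM no longer passed without PDGF-AB replicate 1 (0.0759) or 3 (0.0814), or without AG1296 10 uM replicate 1 (0.0788), 2 (0.106) or 3 (0.0503). Rrm2 fell by 0.31 with PDGF-AB relative to AG1296 at 1 uM (SE 0.08, adjusted p = 0.0482), and this call did not pass without any 1 of the 12 arrays (0.0586 to 0.217). Anln fell by 0.34 relative to AG1296 at 1 uM (SE 0.09, adjusted p = 0.0369). It did not pass without PDGF-AB replicate 1 (0.119) or 3 (0.128), AG1296 10 uM replicate 1 (0.0535), AG1296 1 uM replicate 1 (0.0899), 2 (0.15) or 3 (0.0715), or untreated replicate 1 (0.0531) or 3 (0.0518).

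Apart from ribonucleotide reductase, most replication members leaned the other way from Rrm1 in these comparisons. Against AG1296 at 10 uM, 24 of 31 replication members and 10 of 29 mitosis members were positive with PDGF-AB (50.8% of all genes), with medians of 0.11 and -0.04. Against AG1296 at 1 uM, 23 of 31 and 12 of 29 were positive (56% of all genes), with medians of 0.15 and -0.05. Without PDGF-AB replicate 1 the counts were 21 of 31 and 12 of 29 against 10 uM, and 23 of 31 and 8 of 29 against 1 uM. Without AG1296 10 uM replicate 3, 4 of 29 mitosis members were positive against 10 uM, with a median of -0.11. The arrays did not overlap for 10 replication members higher and 4 lower with PDGF-AB than with AG1296 at 1 uM (11.4% and 10.4% of all genes), and for 3 higher and 2 lower than with AG1296 at 10 uM (8.47% and 9.59%). For mitosis members they did not overlap for 0 higher and 4 lower against 1 uM, and for 1 higher and 7 lower against 10 uM, beside the same shares of all genes. Licensing genes were positive in 9 of 9 against 1 uM, between 0.06 and 0.28, and in 8 of 9 against 10 uM (6 of 9 without PDGF-AB replicate 1). Mcm6 differed by 0.25 ± 0.09 (adjusted p = 0.145), Mcm7 by 0.28 ± 0.11 (adjusted p = 0.221), Gins2 by 0.36 ± 0.14 (adjusted p = 0.185), Tk1 by 0.34 ± 0.13 (adjusted p = 0.19) and Ccne1 by 0.26 ± 0.09 (adjusted p = 0.138) against 1 uM, and all 3 PDGF-AB arrays of each lay above the 3 AG1296 1 uM arrays. These 5 genes did not pass. The 95% interval stayed within 0.5 of 0 for 53 of 60 members against 10 uM (79.3% of all genes) and for 51 of 60 against 1 uM (75.7%).

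**Figure D5:**
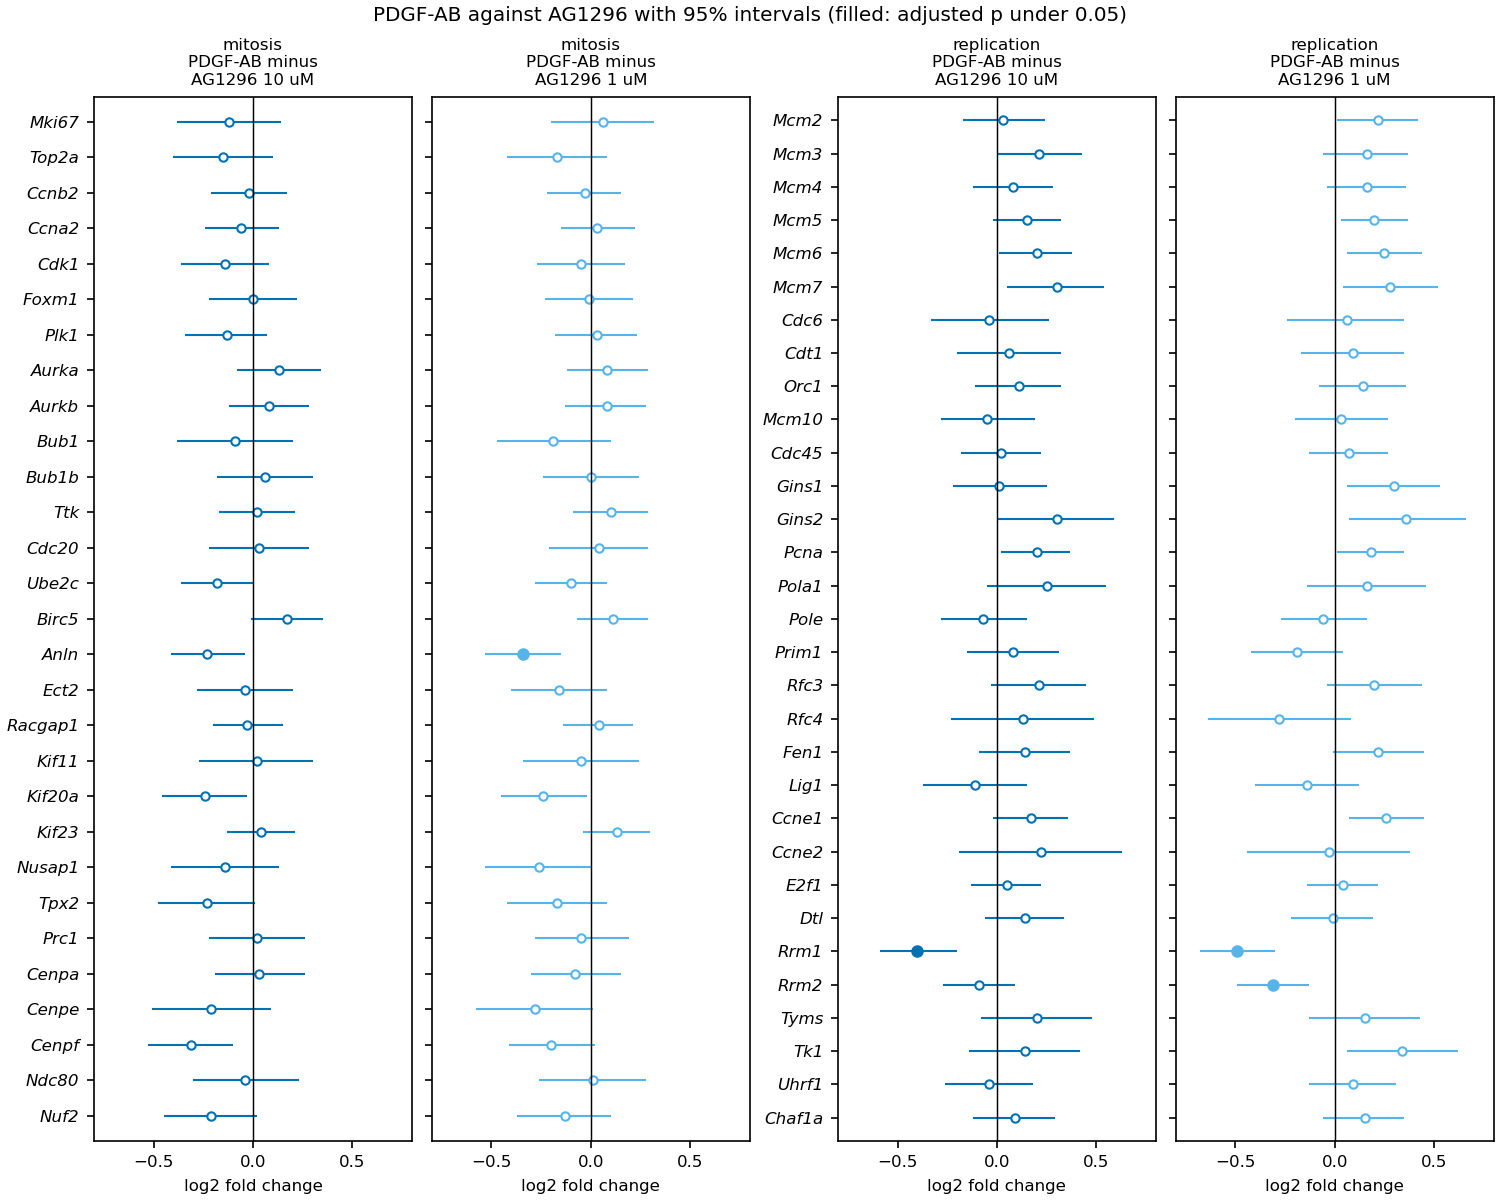
Log2 fold change of each member with PDGF-AB against AG1296 at 10 uM and against AG1296 at 1 uM (horizontal axis, log2 units) with 95% intervals, mitosis and replication members in separate panels. Filled points passed an adjusted p of 0.05: Rrm1 at both doses, and Rrm2 and Anln against 1 uM, all lower with PDGF-AB, while 23 or 24 of the 31 replication points lie right of 0.

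Genes of the same pathways outside the 60 were read in the same fit. Of 70 other mitosis genes 66 were measured, and 1 was called in a comparison with untreated cells. This was Cenpw, a histone-fold protein of the centromere, with AG1296 at 1 uM (background 3.2%). Cenpw rose by 0.50 ± 0.12 (SE, limma adjusted p = 0.0378). Its log2 levels were 3.75 ± 0.07 with AG1296 at 1 uM and 3.25 ± 0.21 in untreated cells (SD, n = 3 each), below the array medians. Dsn1, a subunit of the kinetochore complex that holds microtubules, fell by 0.29 with PDGF-AB relative to AG1296 at 1 uM (SE 0.08, adjusted p = 0.0482). It was the 1 call of 66 there (background 5.21%). At an unadjusted p under 0.05 the counts were 6 of 66 for AG1296 at 1 uM against untreated cells (13.1% of all genes). For PDGF-AB against AG1296 at 1 uM the count was 9 of 66 (16.9%). In the other 4 comparisons 0 of 66 passed (limma; 0, 7, 7 and 10 of 66 at an unadjusted p under 0.05 for PDGF-AB and AG1296 at 10 uM against untreated cells, for 10 uM against 1 uM, and for PDGF-AB against 10 uM, beside 8.55%, 11.4%, 9.07% and 14.1% of all genes). Of 52 other replication genes 50 were measured and 0 passed in any of the 6 comparisons (0 to 6 of 50 at an unadjusted p under 0.05, beside 8.55% to 16.9% of all genes). With PDGF-AB, 21 of these 50 were positive against untreated cells, 20 of 50 against AG1296 at 10 uM and 22 of 50 against AG1296 at 1 uM, against 25, 24 and 23 of the 31 replication members.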

How the data were processed

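Biotin-labelled RNA (100 ng per sample, per the labels' protocols) of 12 samples was measured on 1-colour Affymetrix arrays. Per probe set, the authors deposited log2 values, used here unchanged. The submitters' processing notes name RMA and limma, without versions or settings, and the log base is taken from the span of the numbers. Of 28853 probe sets, 21789 with a single symbol in the platform annotation gave 19938 genes, each at its brightest probe set. The 5443 probe sets with no symbol and 1621 with several were left out.

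A mean per group was fitted to the 12 arrays together, with eBayes moderation (limma 3.58.1, R 4.3.3). The 6 comparisons were two-sided with Benjamini-Hochberg adjustment over all genes (called under 0.05), beside an F test. The script was tested on simulated data. The members and lists were chosen with earlier results of these data known.

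Members were named if called, if among the 4 largest differences of their set in a comparison with untreated cells, or if they were Mki67, Ccna2, Ccnb2, Cdk1, Top2a, Foxm1, Plk1, Pcna, Mcm2, Mcm6, Ccne1, E2f1 or Cdc6, which gave 28 of 60. From the other pathway lists, only called genes were named. Pecam1, Cdh5 and Ptprc were named as defining markers, and the called markers after their values were seen. Promoter windows came from the RefSeq table of GRCm38.p6. The alternatives were the mean over probe sets, all probe sets, genes above the median brightness, quantile normalization, median centring, an intensity trend with robust moderation, only the 6 arrays compared, replicate number as a block, and leaving out each array. The number of arrays limits the precision.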

Additional observations from a re-analysis of the deposited data

How the results depend on the processing

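Each value was recomputed under 20 alternatives. Of 3354 values for the 28 named members, 3292 kept their direction when called and their side of the threshold, 52 lost a call, 10 gained one and 0 changed direction with a call. Rrm1 passed in PDGF-AB against AG1296 1 uM under all 20, Cenpf in AG1296 10 uM against untreated under 15, Rrm1 in PDGF-AB against AG1296 10 uM under 13, Anln under 10, and Rrm2 under 6 (AG1296 1 uM against untreated) and 4 (PDGF-AB against AG1296 1 uM). Testing only genes above the median brightness, which adjusts over fewer genes, gave 1 call among replication members for PDGF-AB and 1 for AG1296 10 uM against untreated, 1 mitosis and 2 replication calls for AG1296 1 uM against untreated, 1 mitosis call for PDGF-AB against AG1296 10 uM and 4 replication calls for PDGF-AB against AG1296 1 uM. With only the 6 arrays compared, the mitosis calls were 0 for AG1296 10 uM against untreated and 0 for PDGF-AB against AG1296 1 uM, and the replication calls were 0 for AG1296 1 uM against untreated, 0 for PDGF-AB against AG1296 10 uM and 1 for PDGF-AB against AG1296 1 uM. Median centring gave the same 0 and 1 calls for these comparisons, except that the mitosis call for AG1296 10 uM stayed at 1. All probe sets gave 0 replication calls for AG1296 1 uM against untreated and 1 for PDGF-AB against AG1296 1 uM. Quantile normalization gave 2 and 1 in these, and a mitosis median of 0.00 for PDGF-AB against AG1296 1 uM in place of -0.05. The intensity trend gave 2 for AG1296 1 uM against untreated. The cause of these changes was not tested. Leaving out single arrays gave 0 to 1 mitosis calls for AG1296 10 uM against untreated and for PDGF-AB against AG1296 1 uM, and among replication members 0 to 1 for AG1296 1 uM against untreated, 0 to 1 for PDGF-AB against AG1296 10 uM and 1 for PDGF-AB against AG1296 1 uM. In that last comparison the medians then ran from -0.08 to -0.03 for mitosis and from 0.09 to 0.18 for replication members. Over all genes, calls for PDGF-AB against untreated were 66, with 21 to 62 after leaving out an array and 7 to 160 otherwise.

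The replicate numbers shared by the groups do not pair the arrays by any label, and deviations of same-numbered arrays correlated at -0.02 to 0.07 for number 1, 0.15 to 0.30 for number 2 and -0.03 to 0.22 for number 3, with 1, 4 and 4 of 4 arrays correlating best with their own number. With the replicate block, replication calls for AG1296 1 uM against untreated went to 2, as Rrm1 passed (0.31, adjusted p = 0.0486), and no other member's call changed. Genes near the dim end, such as Orc1, limit what the arrays can show.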

Other observations

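Of 10 genes of G1 control (D-type cyclins, their kinases and the kinase inhibitors), 9 were measured and 1, the cyclin D1 gene Ccnd1, was called. It passed in 4 of the 6 comparisons, in which 3.2%, 0.376%, 3.42% and 5.21% of all genes were called (AG1296 at 1 uM against untreated cells, 10 uM against 1 uM, and PDGF-AB against 10 uM and against 1 uM). Ccnd1 had log2 levels of 11.40 ± 0.06 with PDGF-AB, 11.09 ± 0.04 with AG1296 at 10 uM, 10.56 ± 0.03 with AG1296 at 1 uM and 11.19 ± 0.04 in untreated cells (SD, n = 3 each). With AG1296 at 1 uM it fell by 0.63 relative to untreated cells (SE 0.08, limma adjusted p = 0.000296). With PDGF-AB it was higher by 0.31 than with AG1296 at 10 uM (adjusted p = 0.0399) and by 0.84 than with AG1296 at 1 uM (adjusted p = 1.08e-05). Between the doses, it was higher by 0.53 at 10 uM than at 1 uM (adjusted p = 0.00992). Cyclin D1 acts upstream of E2F, and E2f1 and Ccne1 did not pass in the same comparisons. Ccne1 differed in the direction of Ccnd1 in each, by -0.20, 0.09, 0.17 and 0.26 in the order given above (limma adjusted p = 0.338, 0.829, 0.445 and 0.138). In the last it passed when only genes above the median brightness were tested (adjusted p = 0.0451). The group means of E2f1 lay between 6.61 and 6.66. A link between these genes and Ccnd1 was not tested.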
